A study of Mus musculus with 15 samples.

Results

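The genes described here encode the machinery of antigen presentation by the major histocompatibility complex (MHC), and they were followed in cerebellar cultures given interleukin-12 (IL-12). Members were all protein-coding mouse genes whose symbol is H2- followed by a capital letter (the H2 complex is the mouse MHC), together with B2m, Tap1, Tap2, Tapbp, Tapbpl, Nlrc5, Ciita, Cd74, Psmb8, Psmb9, Psmb10, Psme1, Psme2 and Erap1. This gave 54 genes of the 35142 with transcripts in the files. Of these, 42 belong to the class I pathway and 12 to the class II pathway. Reads sufficed for a test in 29 members (23 of class I and 6 of class II), with 1 count per 1e6 reads (CPM, counts scaled to library size) or more in 2 or more cultures, as 15360 genes did in all.

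MHC class I molecules are made of a heavy chain and β2-microglobulin and show peptides from the cell interior to CD8+ T cells and natural killer cells. Their peptides are cut by the proteasome, pumped into the endoplasmic reticulum by the TAP transporter and trimmed and loaded there. MHC class II molecules are made of an α and a β chain, travel with the invariant chain CD74 to endosomes, and receive peptides there under the control of H2-DM and H2-O. Interferon-γ, a cytokine that lymphocytes release in response to IL-12, is the classical inducer of both pathways, through the transactivators NLRC5 for class I and CIITA for class II. In the healthy brain, microglia and border macrophages are the main cells with class II, and neurons carry little of either class.

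RNA came from dissociated cerebellar cells of wild-type C57BL/6 pups (postnatal day 0 to 4), which stayed unstimulated (5 cultures) or received recombinant murine IL-12p70 at 30 ng/ml (5 cultures) or 100 ng/ml (5 cultures) on day 14 in vitro for 18 h. The study used them to ask what IL-12 changes in neurons directly. Labels number the cultures 1 to 5 in each group without saying whether these were separate preparations, so p-values measure the spread between cultures, which may be technical. Between 25746096 and 38435850 reads were assigned per culture. The cells are labelled as neurons, yet markers of several cell types were present: per-length levels, in transcripts per 1e6 (TPM), summed to 258 TPM over 12 cerebellar neuron markers in unstimulated cultures, against 8580 TPM over the microglial, 7700 TPM over the oligodendrocyte-lineage and 3880 TPM over the astrocyte markers. In such mixed cultures, fewer cells of a type and less RNA per cell cannot be told apart. One culture stood apart over all genes: without replicate 2 at 100 ng/ml, the genes called at that concentration went from 1500 to 2932, and the members called stayed at 5 of class I and 1 of class II.

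The sequence upstream of these genes carries elements for which the 2 classes are known, and short stretches are shown so that they can be read beside the expression values. The 250 bases before the annotated start of the canonical transcript were searched on both strands for GGGATTNCC (a κB-type element, which NF-κB binds), AAGTGAAA (an interferon-response type element) and a pair made of TGATG or GATGA followed by ATTGG, with 15 to 35 bases from start to start (the X2 and Y boxes of the MHC enhancer, on which NLRC5 and CIITA assemble). The κB-type element was found in 5 of 30 class I heavy chain genes, in 0 of 10 class II chain and exchange factor genes and in 0.905% of 21757 protein-coding genes. The interferon-response type element was found in 9, in 0 and in 1.44% of them, respectively. The X2 and Y pair was found in 8 of the class I and 6 of the class II genes, against 1.54% of all genes, and ATTGG alone in 36.5%. Several H2-Q and H2-T windows are near copies of each other, so these counts are not of independent sequences, and a match says only that the letters are there.

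Shown in capitals are the κB-type and interferon-response type elements (the latter on the reverse strand, as TTTCACTT) and, where present, the X2 and Y pair. All are on GRCm39 and read toward the gene start. For class I they are H2-K1 (chr17:34219396-34219439, minus strand), H2-Q4 (chr17:35598412-35598526, plus strand; part of it is an exon of Gm11131 on the other strand) and H2-T22 (chr17:36353810-36353833, minus strand).
H2-K1: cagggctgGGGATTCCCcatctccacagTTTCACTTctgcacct
H2-Q4: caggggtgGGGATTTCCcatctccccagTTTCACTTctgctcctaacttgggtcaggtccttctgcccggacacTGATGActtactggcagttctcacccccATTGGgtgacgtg
H2-T22: tggcttagTTTCACTTtcgaatcc
For class II they are H2-Ab1 (chr17:34482122-34482168), H2-DMb2 (chr17:34364098-34364145) and H2-Ob (chr17:34457792-34457834), all on the plus strand, in which the X2 and Y pair was the only one of the 3 patterns found.
H2-Ab1: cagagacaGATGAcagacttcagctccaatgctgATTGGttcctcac
H2-DMb2: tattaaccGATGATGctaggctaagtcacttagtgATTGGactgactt
H2-Ob: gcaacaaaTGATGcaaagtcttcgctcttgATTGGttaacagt

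Class I transcripts were abundant without stimulation, and class II transcripts were scarce. In unstimulated cultures B2m, the light chain of all class I molecules, stood at 1430 ± 146 TPM (SD, n = 5), and the classical heavy chains H2-K1 and H2-D1, which present peptides to CD8+ T cells, stood at 645 ± 64 and 365 ± 31.6 TPM. Nonclassical heavy chains, with narrower or regulatory roles, followed with H2-Q4 at 52.1 ± 3.9, H2-T23 (Qa-1, a ligand of inhibitory receptors on natural killer cells) at 46.9 ± 6.65, H2-T22 at 42.4 ± 2.64 and H2-M3 (which presents formylated peptides) at 17.1 ± 1.06 TPM. The other 5 tested nonclassical genes (H2-Q5, H2-Q6, H2-Q7, H2-T10 and H2-T24) lay between 0.858 and 5.27 TPM. All 19 untested class I genes were nonclassical heavy chains with at most 33 reads in a culture. Of these, H2-M9, H2-M10.1, H2-M10.2, H2-M10.4, H2-M10.5 and H2-M10.6 had 0 reads in all 15 cultures.

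The class I processing genes were present as a full set. In unstimulated cultures, TPM levels were 167 ± 14.8 for Tapbp (tapasin, which bridges TAP and the empty heavy chain), 57.8 ± 9.34 for Erap1 (the trimming peptidase), 29 ± 1.4 for Tap2, 27.9 ± 1.77 for Tap1 and 10.6 ± 0.557 for Tapbpl (a peptide editor related to tapasin). The inducible proteasome subunits Psmb8, Psmb9 and Psmb10 stood at 59.9 ± 5.46, 22.9 ± 3.29 and 65.9 ± 10.6 TPM, and Psme1 and Psme2, the PA28 caps that open the proteasome, at 105 ± 4.3 and 181 ± 13.4 TPM. Psmb8 made up 21.8 ± 1.66% of the summed TPM of Psmb8 and Psmb5, the constitutive subunit it replaces. The corresponding share was 5.27 ± 0.751% for Psmb9 beside Psmb6 and 26.2 ± 3.2% for Psmb10 beside Psmb7. Nlrc5 stood at 4.48 ± 0.417 TPM.

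Among the class II genes, H2-DMa and H2-DMb1 had the highest levels per length, and the others stood at 4.43 TPM or less. H2-DMa and H2-DMb1, the 2 chains of the exchange factor H2-DM, stood at 32.8 ± 3.75 and 15.7 ± 1.07 TPM in unstimulated cultures, while Cd74 stood at 3.01 ± 0.722 TPM (34 to 78 reads per culture). Among the chains, H2-Ab1 stood at 4.43 ± 0.45 TPM (46 to 118 reads), while H2-Aa, the α chain that pairs with it, had 1, 3, 0, 2 and 3 reads without IL-12, 3, 1, 3, 1 and 4 reads with 30 ng/ml and 3, 1, 1, 1 and 2 reads with 100 ng/ml. H2-Eb1, the β chain of I-E, had 6, 5, 6, 4 and 5 reads, then 10, 5, 5, 12 and 5 reads, and 4, 3, 5, 5 and 2 reads in the same order of groups. Both genes are close to absent in all 3 groups, which overlap. H2-Eb2 had 0 to 3 reads and H2-Ea 0 reads in each culture, and mice of the b haplotype such as C57BL/6 are known to carry a deletion in the promoter of H2-Ea. Ciita had 14, 3, 4, 7 and 5 reads without IL-12, 9, 10, 3, 3 and 12 reads with 30 ng/ml and 5, 6, 5, 6 and 10 reads with 100 ng/ml, again with overlapping groups. H2-Oa, the α chain of H2-O, had 10 to 29 reads. H2-Aa, H2-Eb1, H2-Eb2, H2-Ea, H2-Oa and Ciita are the 6 class II genes too low to test.

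**Figure D1:**
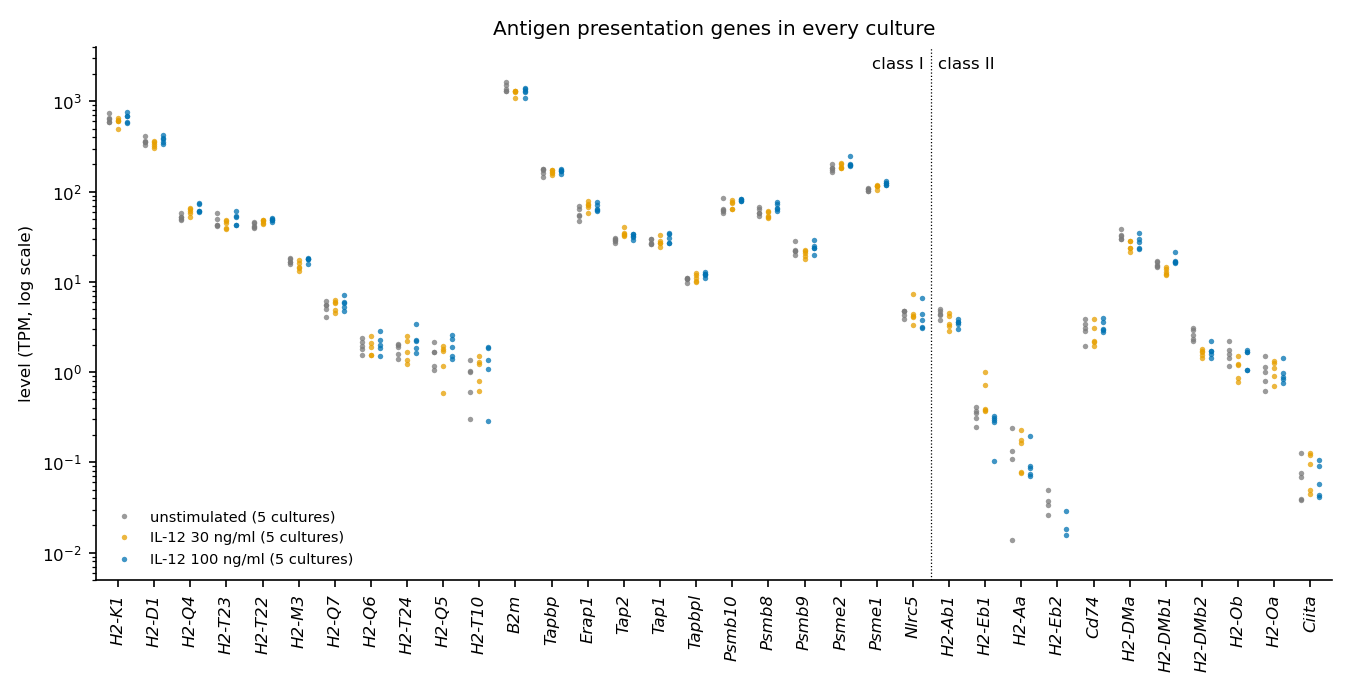
Level of each tested member and of 5 class II members too low to test (TPM, log scale), with 1 point per culture, grey for unstimulated, orange for 30 ng/ml and blue for 100 ng/ml IL-12, cultures at 0 not drawn. B2m, H2-K1 and H2-D1 lie at 308 TPM or more in each culture, while H2-Ab1, the next class II gene after H2-DMa and H2-DMb1, reaches 4.97 TPM, and the 3 groups lie close together on this scale.

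At 100 ng/ml, a minority of the class I genes rose by a small amount. Of 23 tested, 5 rose and 0 fell at a Benjamini-Hochberg false discovery rate (FDR) under 0.05 in edgeR's quasi-likelihood test, where 5.83% of all tested genes rose and 3.93% fell (9.77% called in all). The median log2 fold change over the 23 was 0.18, beside -0.004 over all tested genes, and 22 of the 23 lay above zero. The 5 that rose were H2-Q4, H2-T22, Psmb10, Psme1 and Psme2, that is, 2 nonclassical heavy chains, 1 inducible proteasome subunit and both PA28 genes.

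The largest of these rises was that of H2-Q4, a nonclassical heavy chain gene of the Q region. It stood at 53.5, 54.7, 63.2, 52.9 and 48.2 CPM in the unstimulated cultures (replicates 1 to 5) and at 79.1, 74.5, 64.5, 64.3 and 61.6 CPM at 100 ng/ml, and only the third unstimulated culture exceeded the lowest culture with 100 ng/ml. The log2 fold change was 0.34 ± 0.08 (SE, FDR = 0.0135), and it passed the threshold under all 25 alternatives. At 30 ng/ml, values were 66, 54.6, 67.4, 63.6 and 58.9 CPM (0.19 ± 0.08, FDR = 0.165). In 97.2% of its positions, a read of 100 bases from the main H2-Q4 transcript matches no other gene, so read sharing with the other H2-Q genes touches a small part of it, while 16.6% of its exon bases lie opposite Gm11131.

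H2-T22, which γδ T cells can recognize without a peptide, stood at 38.9, 41.1, 45.2, 47.1 and 39.5 CPM in unstimulated cultures and at 50.2, 48.3, 48.8, 50.3 and 46.1 CPM at 100 ng/ml (0.20 ± 0.05 on the log2 scale, FDR = 0.0251). The groups overlapped in 1 culture on each side. The call of H2-T22 passed the threshold under 19 of 25 alternatives (13 of 25 with both concentrations averaged), with FDR values up to 0.0728 at 100 ng/ml. For this gene, 85.2% of the 100-base positions of the main transcript are unique, and 29.8% of its exon bases lie opposite A930015D03Rik. Psmb10, an inducible catalytic subunit, stood at 23.7, 25.6, 32, 28.1 and 24 CPM in unstimulated cultures and at 34.6, 28.7, 33.2, 34.2 and 33.5 CPM at 100 ng/ml (0.30 ± 0.08, FDR = 0.0234). Replicate 2 was the single low culture at 100 ng/ml, below the third unstimulated one. The call of Psmb10 passed the threshold under 21 of 25 alternatives, with FDR values up to 0.0688. The TPM share of Psmb10 beside Psmb7 was 30.2 ± 0.829% for 100 and 28.3 ± 2.18% for 30 ng/ml.

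Psme1 stood at 45.9, 47.6, 51.1, 53.1 and 45.2 CPM in unstimulated cultures and at 61.2, 52.2, 54.3, 57.5 and 53.6 CPM at 100 ng/ml (0.20 ± 0.06, FDR = 0.0317). Psme2 stood at 60.8, 62.6, 67.2, 70.4 and 56.1 CPM and at 74.9, 71.7, 73.5, 72.3 and 67.4 CPM (0.18 ± 0.06, FDR = 0.0488). In both genes, unstimulated replicate 4 was the only one of its group to reach into the range at 100 ng/ml. The call of Psme2 was lost under 15 of 25 alternatives, with FDR values up to 0.473: these were 9 of the 15 fits with a culture left out, RLE size factors (0.0515), no filter on low counts (0.0592), only the groups compared (0.0797), the replicate block (0.0501), limma on log2(TPM + 1) (0.125) and protein-coding transcripts alone (0.12 on the log2 scale, FDR = 0.473). For this gene, 73.7% of the 100-base positions of the main coding transcript are unique, and 30.8% of its exon bases lie opposite Rnf31. For Psme1, 39.6% of the exon bases lie opposite Emc9. Its call passed the threshold under 19 of 25 alternatives, with FDR values up to 0.0845.

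The class I rises were small enough for single cultures to decide the count. It fell from 5 to 1 when any one of unstimulated replicates 1 and 5 or of the 100 ng/ml replicates 1 and 4 was dropped, and to 2 when unstimulated replicate 2 was. In a fit of these 2 groups alone it was 3.

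The central genes of class I did not pass the test at 100 ng/ml. H2-K1 stood at 318, 331, 404, 361 and 313 CPM in unstimulated cultures and at 444, 378, 335, 383 and 350 CPM at 100 ng/ml (0.13 ± 0.08, FDR = 0.354). B2m stood at 594, 588, 755, 707 and 572 CPM and at 617, 645, 496, 633 and 571 CPM (-0.12 ± 0.09, FDR = 0.412), and it was the only tested class I gene with a negative value. These groups overlapped widely. H2-D1 stood at 369, 387, 465, 409 and 352 CPM without and at 481, 414, 372, 414 and 387 CPM with 100 ng/ml (0.06 ± 0.08, FDR = 0.672). Tap1 stood at 35.9, 36, 42.5, 40.4 and 36.3 CPM and at 44.6, 39.4, 37.5, 42.5 and 38.6 CPM (0.09 ± 0.07, FDR = 0.457). In both genes replicate 1 was the highest with 100 ng/ml and unstimulated replicate 3 the highest of the controls, and the groups overlapped. Psmb8 did not pass either (0.20 ± 0.08, FDR = 0.116).

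Nlrc5, the class I transactivator, stood at 11.9, 13, 12.7, 13.1 and 11.9 CPM in unstimulated cultures and at 14.3, 16.1, 14, 14.7 and 12.7 CPM at 100 ng/ml (0.20 ± 0.07, FDR = 0.0913), with replicate 5 as the only stimulated culture in the unstimulated range. Its value turned to -0.11 on the log2(TPM + 1) scale in limma (FDR = 0.776). Tapbpl was the 1 tested class I gene with every culture at 100 ng/ml (16.1 to 17.2 CPM) above every unstimulated culture (13.8 to 15.7 CPM), which 4.34% of all tested genes showed (2.84% had every culture below), but its FDR was 0.0761 (0.19 ± 0.07). Of the remaining members, Erap1, Tap2, Tapbp, Psmb9, H2-M3, H2-T23, H2-T24, H2-T10, H2-Q5, H2-Q6 and H2-Q7 had log2 fold changes between 0 and 0.53 with FDR values from 0.168 to 0.986.

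**Figure D2:**
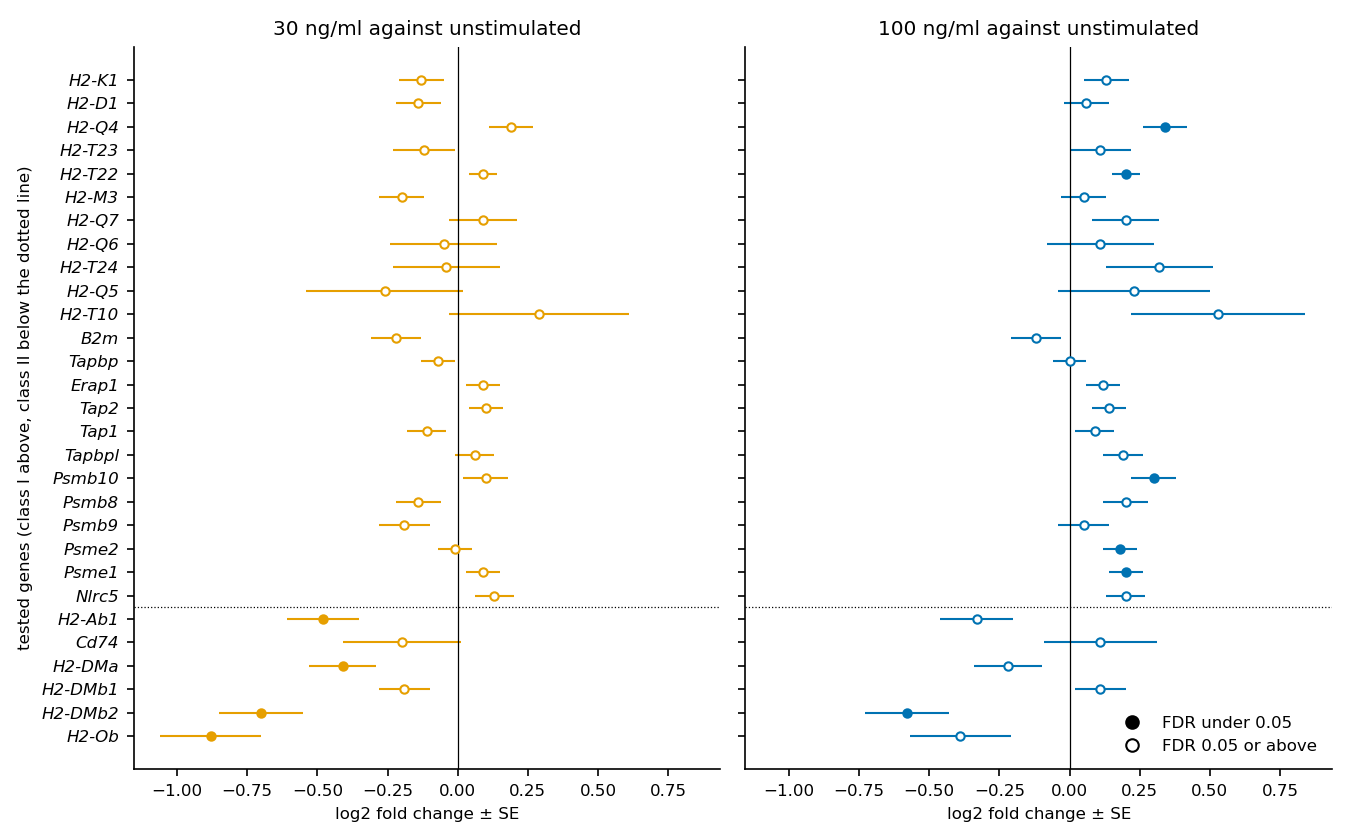
Log2 fold change against unstimulated cultures with its standard error for the 29 tested members, at 30 ng/ml (left) and 100 ng/ml (right), class I above and class II below the dotted line, with filled points for an FDR under 0.05. At 100 ng/ml, 5 class I points are filled on the right of zero and 1 class II point on the left, and at 30 ng/ml the 4 filled points are all class II and on the left.

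At 30 ng/ml, class II genes were lower and no class I gene passed the test. Of the 6 class II genes tested, 4 fell and 0 rose, where 3.71% of all tested genes fell and 4.16% rose (7.87% called in all), and all 6 log2 fold changes were below zero with a median of -0.45, beside 0 over all genes. The 4 that fell were H2-Ob, H2-DMb2, H2-Ab1 and H2-DMa, so 3 of the 4 belong to the exchange factors. Of the 23 class I genes, 0 passed in edgeR (4 at an unadjusted p under 0.05, and 0 in DESeq2), and their median was -0.04. There, H2-K1 stood at 323, 288, 344, 347 and 282 CPM (-0.13 ± 0.08, FDR = 0.414), H2-D1 at 322 to 394 CPM, and Tap1 at 33.5 to 40.9 CPM. B2m stood at 556, 571, 588, 574 and 473 CPM (-0.22 ± 0.09, FDR = 0.13) and Nlrc5 at 13.6, 12.3, 14.8, 12.7 and 15.2 CPM (0.13 ± 0.07, FDR = 0.292). All 5 of these genes overlapped the unstimulated cultures. Both comparisons with unstimulated cultures use the same 5 control cultures and are not independent of each other.

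H2-Ob, the β chain of H2-O, which restrains H2-DM, had the largest fall. It stood at 1.85, 1.72, 2.12, 2.58 and 1.72 CPM in unstimulated cultures and at 0.725, 1.25, 0.972, 1.37 and 1.1 CPM at 30 ng/ml, and every stimulated culture was below every unstimulated one (3.46% of all tested genes showed this, and 5.44% had every culture above). H2-DMb2 and H2-Ab1 were the other 2 such members. The log2 fold change was -0.88 ± 0.18 (FDR = 0.00773), on 22 to 72 reads per culture. It was -0.31 (FDR = 0.15) in limma on the log2(TPM + 1) scale, which compresses low values. The TPM values themselves also overlapped, at 1.18 to 2.22 in unstimulated cultures and 0.78 to 1.52 at 30 ng/ml. Their means were 1.63 ± 0.391 and 1.12 ± 0.298 TPM, so the separation of the groups holds in CPM only. At 100 ng/ml, values were 1.5, 1.37, 1.59, 1.95 and 1.19 CPM (-0.39 ± 0.18, FDR = 0.168), between the other 2 groups and overlapping both.

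H2-DMb2, a second gene for the β chain of H2-DM, was the 1 member that fell at both concentrations. It stood at 2.01, 1.75, 2.59, 2.43 and 1.79 CPM without IL-12, at 1.19, 1.15, 1.42, 1.41 and 1.34 CPM under 30 ng/ml and at 1.35, 1.76, 1.42, 1.18 and 1.4 CPM under 100 ng/ml. All cultures with 30 ng/ml were below all unstimulated ones, and at 100 ng/ml only replicate 2 reached the unstimulated range. The log2 fold changes were -0.70 ± 0.15 for 30 ng/ml (FDR = 0.00829) and -0.58 ± 0.15 for 100 ng/ml (FDR = 0.0194). The first passed under all 25 alternatives, and the second missed the threshold when unstimulated replicate 3 (FDR = 0.053) or the fourth 100 ng/ml culture (FDR = 0.0504) was dropped.

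H2-DMb1, its neighbor and near copy, showed no such fall. It stood at 9.86, 9.41, 12.7, 11.3 and 9.5 CPM in unstimulated cultures, at 8.31, 8.54, 10.1, 10.3 and 9.19 CPM at 30 ng/ml (-0.19 ± 0.09, FDR = 0.234) and at 11.5, 10.5, 11.1, 12.9 and 11 CPM at 100 ng/ml (0.11 ± 0.09, FDR = 0.467). The difference between both genes' changes was not tested. Coding sequences of the canonical transcripts, 783 bases each, are identical at 751 positions (95.9%), with a longest identical run of 221 bases, so that some reads fit either gene. For H2-DMb2 and H2-DMb1, 86.4% and 86.3% of the 100-base positions of the main transcript are unique.

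The 120 bases of a single exon in which the pair differs most are given here with the 23 differing bases in capitals, to show how closely related the sequences are even there. They are coding bases 201 to 320 of either gene, at chr17:34374552-34374671 for H2-DMb1 and chr17:34366770-34366889 for H2-DMb2 (GRCm39, plus strand).
H2-DMb1: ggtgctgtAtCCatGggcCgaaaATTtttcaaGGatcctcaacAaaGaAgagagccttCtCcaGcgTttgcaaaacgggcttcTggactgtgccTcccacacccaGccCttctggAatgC
H2-DMb2: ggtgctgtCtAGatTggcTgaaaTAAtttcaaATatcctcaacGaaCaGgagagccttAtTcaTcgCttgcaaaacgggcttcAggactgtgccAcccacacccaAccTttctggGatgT

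H2-Ab1, the β chain of the class II molecule I-A, stood at 3.08, 2.79, 2.59, 2.83 and 3.21 CPM in unstimulated cultures and at 1.75, 1.87, 2.58, 2.4 and 1.8 CPM at 30 ng/ml. The groups did not overlap in CPM, though the highest stimulated and the lowest unstimulated culture were next to each other. In TPM they did overlap, with replicates 3 and 4 at 30 ng/ml (4.55 and 4.22 TPM) inside the unstimulated range (3.82 to 4.97 TPM). The log2 fold change was -0.48 ± 0.13 (FDR = 0.0348), and at 100 ng/ml it was -0.33 ± 0.13 (FDR = 0.118). H2-DMa stood at 18.3, 19.1, 25.5, 22.2 and 20.4 CPM in unstimulated cultures and at 14.5, 15.1, 18.6, 18.3 and 12.7 CPM at 30 ng/ml (-0.41 ± 0.12, FDR = 0.0478), and the highest stimulated culture lay within the unstimulated range. At 100 ng/ml, H2-DMa stood at 14.7 to 22.4 CPM (-0.22 ± 0.12, FDR = 0.272). Of the H2-DMa exon bases, 11.8% lie opposite Brd2.

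The calls of H2-Ab1 and H2-DMa at 30 ng/ml were each lost under 9 of 25 alternatives. For H2-Ab1, the FDR was 0.0754, 0.0636 and 0.0858 without unstimulated replicate 1, 4 or 5 and 0.0985, 0.0781 and 0.0935 without replicate 1, 2 or 5 at 30 ng/ml. Limma on log2(TPM + 1) gave H2-Ab1 its highest FDR, 0.192, with a log2 fold change of -0.23. No filter on low counts gave 0.0638 and the replicate block 0.0575. For H2-DMa, it was 0.134, 0.101 and 0.0772 without unstimulated replicate 3, 4 or 5, and 0.113, 0.0915 and 0.125 without replicate 1, 2 or 5 at 30 ng/ml. Leaving out replicate 1 or 5 at 100 ng/ml, which enters through the shared dispersion, gave 0.0532 and 0.0585. The count of class II falls at 30 ng/ml was 2 when one of the unstimulated replicates 4 and 5 or of the 30 ng/ml replicates 1, 2 and 5 was dropped.

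Cd74, the invariant chain, did not pass the test in either comparison. It stood at 1.8, 1.22, 2.63, 2 and 2.06 CPM in unstimulated cultures, at 1.91, 1.32, 1.46, 2.47 and 1.27 CPM at 30 ng/ml (-0.20 ± 0.21, FDR = 0.636) and at 2.44, 1.84, 1.97, 2.49 and 1.75 CPM at 100 ng/ml (0.11 ± 0.20, FDR = 0.775). The 3 groups overlapped, and with 34 to 78 reads the standard errors leave room for changes of the size seen in H2-DMa. At 100 ng/ml, H2-DMb2 was the 1 class II gene called (0 rose and 1 fell), and the median log2 fold change of the 6 was -0.28.

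**Figure D3:**
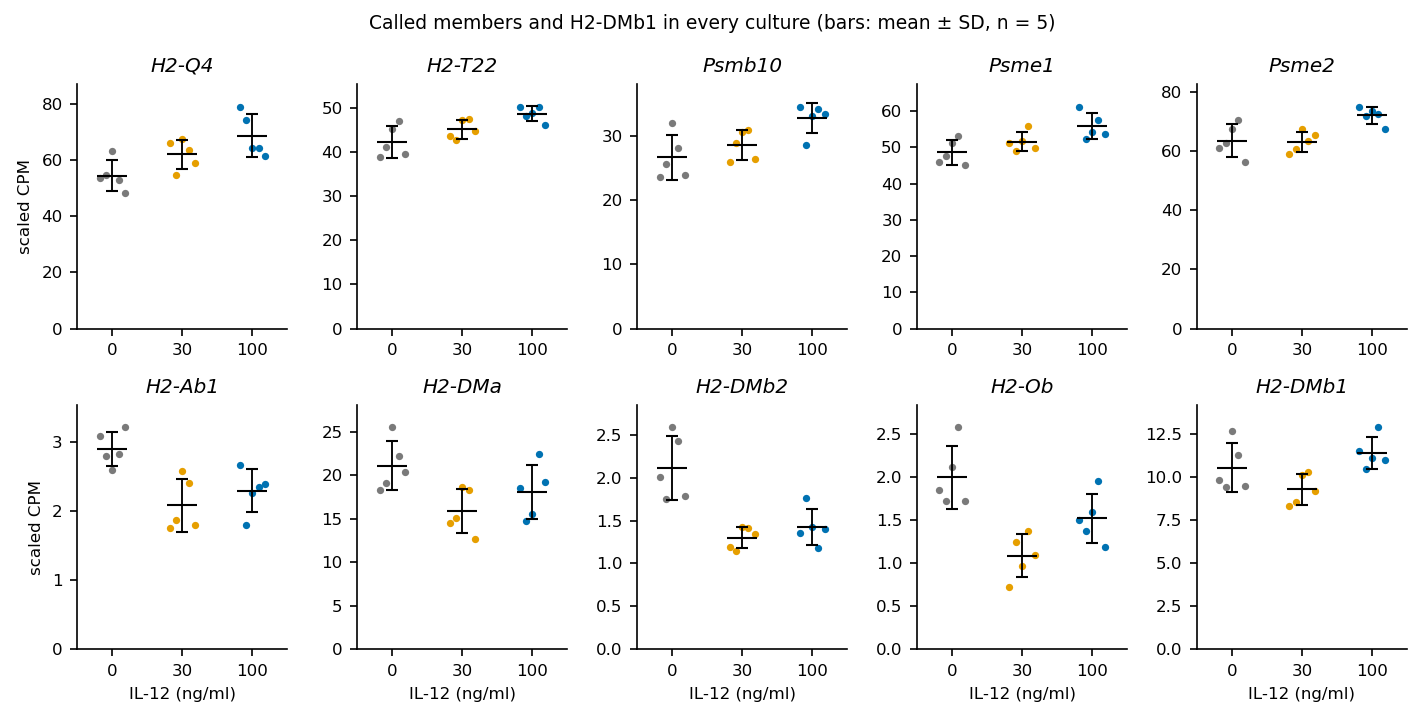
Scaled CPM of the 9 members with an FDR under 0.05 against unstimulated cultures at either concentration, and of H2-DMb1, for unstimulated cultures (0) and 30 and 100 ng/ml IL-12, with 1 point per culture and the mean ± SD (n = 5) in black. In the upper row, the class I genes are highest at 100 ng/ml. In the lower row, H2-DMb2 and H2-Ob at 30 ng/ml lie below all unstimulated cultures and H2-DMb1 overlaps them.

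Markers of several cell types, microglia among them, differed at 30 ng/ml, where the class II genes fell, and markers of some types also differed at 100 ng/ml. Of 13 microglial markers, 12 were in the files, each with reads in at least 1 culture, and 11 were tested. At 30 ng/ml, 7 of the 11 fell, among them Trem2 (-0.51 ± 0.10, FDR = 0.00638), C1qa (-0.43 ± 0.10, FDR = 0.0173) and Cx3cr1 (-0.43 ± 0.11, FDR = 0.0251), with a median of -0.42 over the list. With 100 ng/ml, 0 of the 11 passed in edgeR (1 at an unadjusted p under 0.05) and the median was -0.12. Summed microglial levels ranged from 7090 to 9990 TPM in unstimulated cultures, from 5630 to 7080 TPM at 30 ng/ml and from 6740 to 8970 TPM at 100 ng/ml. The class II sum was 0.725 ± 0.0575% of the microglial sum without IL-12, 0.758 ± 0.0508% under 30 ng/ml and 0.731 ± 0.0414% under 100 ng/ml (SD, n = 5 each). Of 11 tested cerebellar neuron markers, 2 fell at 30 ng/ml (Calb1, -0.53 ± 0.11, FDR = 0.00706, and Gad1, -0.49 ± 0.15, FDR = 0.0448) and Pax6 rose (0.22 ± 0.06, FDR = 0.0365), with a median of -0.49, while their summed level was 247 to 288 TPM beside 219 to 279 TPM in unstimulated cultures. Of 8 astrocyte markers, 3 rose (Aldoc, Slc1a3 and Aldh1l1, by 0.27, 0.19 and 0.20 on the log2 scale), with a median of 0.18 and sums of 4270 to 4970 TPM beside 3560 to 4000 TPM. Of 10 oligodendrocyte-lineage markers, 1 fell at 30 ng/ml and 3 at 100 ng/ml, and 0 rose (medians of -0.08 and -0.15). Their sums were 6320 to 7770 and 5600 to 6780 TPM, beside 6270 to 9290 TPM in unstimulated cultures. At 100 ng/ml, 1 neuron marker fell (Calb1, -0.56 ± 0.11, FDR = 0.00346) and 0 rose. Among the astrocyte markers, Aldoc rose (0.29 ± 0.06, FDR = 0.00651) and 1 fell, and of 5 fibroblast markers Col1a1 rose (0.36 ± 0.10, FDR = 0.0282). The part of these cell types in the class I and class II values was not tested.

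Markers of other immune cells that could carry these genes summed to less. Border macrophage and dendritic cell markers summed to 269 to 439 TPM in unstimulated cultures, 246 to 306 TPM at 30 ng/ml and 281 to 373 TPM at 100 ng/ml, with Cd209a at 0 throughout and 7 of 14 tested, of which Pf4 fell at 30 ng/ml (-0.76 ± 0.14, FDR = 0.00269). With 100 ng/ml, Pf4 (-0.58 ± 0.13, FDR = 0.0116) and Zbtb46 (-0.29 ± 0.08, FDR = 0.021) fell and Ms4a7 rose (0.35 ± 0.10, FDR = 0.0339), and Ms4a7 was also higher than at 30 ng/ml (0.49 ± 0.10, FDR = 0.0294). Markers of T and natural killer cells summed to 6.39 to 10.6 TPM over all cultures with Ncr1 at 0, and B cell markers to 0.599 to 1.92 TPM. Of these, Cd79b rose at 100 ng/ml (0.82 ± 0.24, FDR = 0.0424). Their part in the class I and class II values was not tested.

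Between the concentrations, no member of either class passed the test. Of 23 class I and 6 class II genes, 0 were called in edgeR (8 and 2 at an unadjusted p under 0.05), where 0.579% of all tested genes were (0.501% higher and 0.0781% lower). All 29 log2 fold changes of 100 against 30 ng/ml were above zero. Their medians were 0.19 for class I and 0.25 for class II, beside -0.004 over all tested genes. Of 11 tested microglial markers, 0 lay below zero and 0 passed (10 at an unadjusted p under 0.05), with a median of 0.30. Of 8 astrocyte and 10 oligodendrocyte-lineage markers, 7 and 8 lay below zero. The part of these cell types in the member values was not tested. DESeq2 called 1 class I and 0 class II genes. That gene was Psmb8, which stood at 29.1, 28.1, 33.3, 33.6 and 28 CPM at 30 ng/ml and at 39.7, 39.9, 34.8, 41.9 and 36.6 CPM at 100 ng/ml. All cultures with 100 ng/ml were above all with 30 ng/ml, which 1.74% of all tested genes and 3 members (Psmb8, Psme2 and H2-DMb1) showed, while 1.23% of genes and 0 members had every culture below.

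The log2 fold change of Psmb8 was 0.34 ± 0.08 with an FDR of 0.0635, and it passed the threshold under 9 of 25 alternatives, among them DESeq2 (FDR = 0.00703). It passed also without unstimulated replicate 3 (FDR = 0.0304), replicate 3 or 4 at 30 ng/ml (0.0496 and 0.0443) or replicate 3 at 100 ng/ml (0.0402). The unstimulated cultures, at 30.8, 30, 39.6, 35.9 and 31.5 CPM, overlapped both concentrations. With protein-coding transcripts alone its FDR was 0.268, and 14.6% of its exon bases lie opposite Gm20496. Thus no member was shown to respond differently to the 2 concentrations, although the class I calls came at one and most class II calls at the other.

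With both concentrations averaged against unstimulated cultures, 2 class I genes rose (H2-Q4, 0.26 ± 0.07, FDR = 0.0209, and H2-T22, 0.15 ± 0.05, FDR = 0.0476) and 3 class II genes fell, where 6.69% of all tested genes rose and 5.21% fell. These 3 were H2-DMb2 (-0.64 ± 0.13, FDR = 0.00349), H2-Ob (-0.64 ± 0.15, FDR = 0.0123) and H2-Ab1 (-0.41 ± 0.11, FDR = 0.0269). No member had all 10 stimulated cultures above or below all unstimulated ones, which 1.98% and 1.17% of all tested genes had. The class I count became 0 when unstimulated replicate 1 or 5 was left out, 1 when this was unstimulated replicate 2, replicate 3, 4 or 5 at 30 ng/ml or replicate 1, 3 or 4 at 100 ng/ml, and 4 when it was replicate 2 at 100 ng/ml.

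Summed over genes, class II was a small share of class I in all 3 groups. Heavy chains and B2m together came to 2610 ± 250 TPM in unstimulated cultures, 2360 ± 176 TPM at 30 ng/ml and 2530 ± 231 TPM at 100 ng/ml (SD, n = 5 each). The 12 class II genes came to 61.8 ± 5.72, 49.1 ± 4.97 and 56.8 ± 7.08 TPM, and at 30 ng/ml the highest culture (54.6 TPM) was below the lowest unstimulated one (55.9 TPM). Class II as a share of class I was 2.37 ± 0.132%, 2.08 ± 0.161% and 2.26 ± 0.277%. On the log2 scale this share differed from unstimulated cultures by -0.19 at 30 ng/ml, where no culture reached the lowest unstimulated value (1.9 to 2.26% against 2.27 to 2.6%), and by -0.08 at 100 ng/ml, where the groups overlapped. With B2m left out the differences were -0.25 and -0.19, and with summed CPM -0.22 and -0.17. No test was made of these sums, which B2m, H2-K1 and H2-D1 dominate on one side and H2-DMa and H2-DMb1 on the other.

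**Figure D4:**
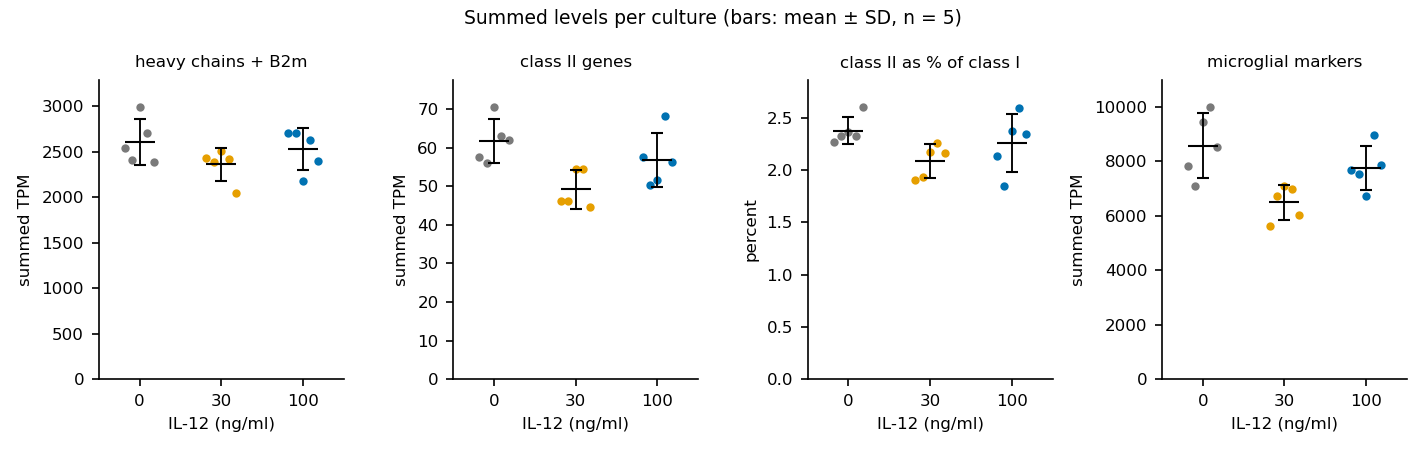
Summed TPM of the class I heavy chains with B2m, of the 12 class II genes and of the microglial markers, and the class II sum as a percentage of the class I sum, in each culture without IL-12 (0) and with 30 and 100 ng/ml, with the mean ± SD (n = 5). At 30 ng/ml, the class II sums lie between 44.5 and 54.6 TPM and the microglial sums between 5630 and 7080 TPM, each below all unstimulated cultures.

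In some cultures many members were high at once. Unstimulated replicate 3 was the highest of its group in 20 of the 29 tested members (69%, beside 18.3% of all tested genes), and replicate 4 in another 7 (24.1%, beside 21.9%). At 30 ng/ml, replicates 3 and 4 were the highest in 11 and 13 members (37.9% and 44.8%, beside 20.9% and 18.7%). With 100 ng/ml, replicate 1 was the highest in 14 (48.3%, beside 24.2%) and replicate 4 in 8 (27.6%, beside 15.1%). The same 2 unstimulated cultures, replicates 3 and 4, had the largest microglial sums (9460 and 9990 TPM, against 7090 to 8540 TPM in the others). At 30 ng/ml, replicates 3 and 4 also did (7080 and 6990 TPM, against 5630 to 6740 TPM). Over all members this did not hold at 100 ng/ml, where replicate 1 (7690 TPM) was below replicate 4 (8970 TPM) and replicate 5 (7870 TPM). There, replicate 5 was the highest in 0 members. Among the class II genes, replicate 4 was the highest at 100 ng/ml for H2-DMa (22.4 CPM), H2-DMb1 (12.9 CPM), H2-Ob (1.95 CPM) and Cd74 (2.49 CPM). It was not the highest for H2-Ab1 and H2-DMb2. The part of microglia in these values was not tested.

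Lists of related genes covered the neighboring steps of both pathways, and their counts stand beside shares of 3.71% lower and 4.16% higher at 30 ng/ml and of 3.93% lower and 5.83% higher at 100 ng/ml over all tested genes. In class II peptide processing, a list that includes the endosomal proteases that cut antigen and invariant chain, 3 of 8 tested genes fell and 0 rose at 30 ng/ml, with a median of -0.29. They were Ctss (cathepsin S, which removes the invariant chain; -0.49 ± 0.10, FDR = 0.00676), Lgmn (-0.34 ± 0.09, FDR = 0.0282) and Ctsb (-0.29 ± 0.08, FDR = 0.0405). With 100 ng/ml, 0 of the 8 passed in edgeR, also at an unadjusted p under 0.05 (0 genes). These proteases are also abundant in microglia.

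Among the 6 chaperones of class I loading, Ero1a, an oxidase that recharges disulfide isomerases, fell under 30 ng/ml (-0.43 ± 0.07, FDR = 0.0014) as under 100 ng/ml (-0.50 ± 0.07, FDR = 0.000248), and the other 5, among them calreticulin and calnexin, did not pass. None of the 16 constitutive proteasome genes passed at either concentration in edgeR (0 and 1 at an unadjusted p under 0.05), with medians of 0 at 30 ng/ml and 0.06 at 100 ng/ml, beside Psmb10, Psme1 and Psme2 described above.

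Upstream of both classes, of 19 tested genes of the X-Y box complex and of interferon input, 2 fell under 30 and 1 under 100 ng/ml, and 0 rose. Irf8, a factor of myeloid cells, fell at both concentrations (-0.49 ± 0.10, FDR = 0.00756, and -0.37 ± 0.10, FDR = 0.0302), and Ifngr1, the ligand-binding chain of the interferon-γ receptor, fell at 30 ng/ml (-0.28 ± 0.06, FDR = 0.00721). Rfx5 and Irf1 did not pass. Ifng had at most 1 read in a culture and Ifnb1 0 reads in all 15. Of 24 tested interferon-stimulated genes outside antigen presentation, Gbp2 rose under 30 ng/ml (0.29 ± 0.06, FDR = 0.00929) as under 100 ng/ml (0.35 ± 0.06, FDR = 0.00156), and Gbp3 rose at 100 ng/ml (0.75 ± 0.16, FDR = 0.00587). These 1 and 2 rises among 24 genes are near the shares over all genes. None of the 24 fell in edgeR, and the median at 100 ng/ml was 0.16.

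Class I-like molecules encoded outside the H2 region gave 2 rises and 1 fall among 9 tested genes at 100 ng/ml. Hfe, which binds the transferrin receptor, rose under 30 ng/ml (0.22 ± 0.05, FDR = 0.00719) as under 100 ng/ml (0.30 ± 0.04, FDR = 0.00049), and Cd1d1, which presents lipids, rose at 100 ng/ml (0.58 ± 0.11, FDR = 0.00249). Ulbp1, a ligand of the activating receptor NKG2D, fell at both (-0.56 ± 0.10, FDR = 0.00227, and -0.43 ± 0.10, FDR = 0.00939). Among 7 tested costimulatory genes, Cd274 (PD-L1, which inhibits T cells) fell under 30 ng/ml (-0.58 ± 0.11, FDR = 0.00389) as under 100 ng/ml (-0.39 ± 0.11, FDR = 0.0286). Cd86, which costimulates them, was higher at 100 than at 30 ng/ml (0.52 ± 0.10, FDR = 0.0241).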

How the data were processed

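According to the methods and the submitters' notes, reads were checked with FastQC 0.10.0, aligned with STAR 2.7.8a to GRCm39 and counted with FeatureCounts (GENCODE M26). The deposited files instead give an estimated count, a TPM value and lengths for each transcript, columns typical of pseudoalignment, and the program and its use of strand are not given in the sources used here. Summing the authors' estimated counts over 121798 transcripts gave 35142 genes by identifier (GENCODE M39, 99% matched); sums were rounded, and the deposited TPM values were added up likewise. Unmatched transcripts, with 0.677% to 0.712% of the reads, were left out. The planned test on counts per gene was run on these sums.

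A gene entered the test when 2 or more cultures had 1 CPM or more. Scaling was by TMM (factors 0.981 to 1.020) and testing by edgeR 4.0.16 (quasi-likelihood, 1 fit of 3 groups) in R 4.3.3, with Benjamini-Hochberg adjustment over 15360 genes. CPM are TMM-scaled. The biological coefficient of variation was 8%. The fit was tested on simulated counts. Alternatives used DESeq2 1.42.0, limma 3.58.1 (pseudocount 1), other scaling, filters and samples, the replicate number as a block, and each culture left out. Named genes were 11 fixed members, members with an FDR under 0.05, and at most 4 such genes per related list and comparison; interferon-stimulated genes and cell markers were named after their values were seen. Members, lists and this rule were chosen with earlier results of these data known, as were the upstream windows, read from GRCm39 with Python 3.11.15. Pairs were aligned with Biopython 1.88. Within each group, chi-square tests showed that no 2 cultures were one library.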

Additional observations from a re-analysis of the deposited data

Results flagged for a closer look

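In each group of 5 cultures, the CPM of the 29 tested members were searched for a culture whose gap to the nearest other exceeds 0.71 of the group's range (Dixon's 95% value). Chance gives about 1 in 20 groups, and 4 of 87 (4.6%) stood out. B2m was low in replicate 5 at 30 ng/ml (473 CPM, against 556 to 588 CPM in the others). Tap1 was high in replicate 3 at 30 ng/ml (40.9 CPM, against 33.5 to 35.5 CPM). Psmb10 was low in replicate 2 at 100 ng/ml (28.7 CPM, against 33.2 to 34.6 CPM), the culture that stood apart over all genes, and without it the log2 fold change of Psmb10 at 100 ng/ml was 0.35 (FDR = 0.0068). H2-Q7 was high in replicate 1 at 100 ng/ml (7.26 CPM, against 5.05 to 5.47 CPM). No cause of these values was tested.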

How the results depend on the processing

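Across 25 alternatives, no called value changed sign. Class I rises at 100 ng/ml numbered 5, 3 with only the groups compared, and 1 to 6 with single cultures left out. They numbered 4 with RLE factors, no filter on low counts, the replicate block, protein-coding transcripts alone or limma. At 30 ng/ml, class I calls went from 0 to 1 with limma on log2(TPM + 1) (Tap2), and 0 to 1 with cultures left out. Between concentrations they went from 0 to 1 (Psmb8) with DESeq2, the likelihood-ratio test, no filter on low counts, only the groups compared or the replicate block, and 0 to 1 with cultures left out. For the mean of both concentrations, the 2 class I rises became 1 with RLE factors or no filter, 4 with library size alone, DESeq2, the likelihood-ratio test, the replicate block or limma, and 0 to 4 with cultures left out (0 without unstimulated replicate 1 or 5). Class II falls were 0 to 1 (1 as reported) at 100 ng/ml with cultures left out, and 4 at 30 ng/ml against 2 with limma and 2 to 4 with cultures left out. At 30 ng/ml they were 3 with no filter on low counts, the replicate block or protein-coding transcripts alone. For the mean they were 3, against 1 with limma, 2 with no filter, 4 with DESeq2, the likelihood-ratio test or the replicate block, and 2 to 4 with cultures left out. Between concentrations limma called 1 class II gene (H2-DMb1) in place of 0. Class II to class I differences stayed between -0.22 and -0.16 at 30 ng/ml and between -0.13 and -0.01 at 100 ng/ml with cultures left out, and were -0.22 and -0.17 with summed CPM, -0.25 and -0.19 with B2m left out and -0.20 and -0.09 with Cd74 left out (30 and 100 ng/ml), against -0.19 and -0.08 as reported. The cause of these shifts was not tested.

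Replicate numbers gave no clear sign of pairing. Deviations of same-numbered cultures correlated at -0.22 to 0.28 over 15 pairs (5 above 0.1). In 4 of these pairs the same number was the best match. Weak correlations cannot exclude that equal numbers share a preparation. With the replicate block, class I rises at 100 ng/ml were 4 (Psme2 at an FDR of 0.0501) and class II falls at 30 ng/ml were 3 (H2-Ab1 at 0.0575), and the calls over all genes went from 1500 to 1169 and from 1209 to 1081. At this depth, 19 of 42 class I and 6 of 12 class II genes had too few reads to test.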
